A study of Mus musculus with 6 samples.

Results

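The 10 genes described here encode enzymes and inhibitors that remodel collagen and elastin, and were taken by symbol from the deposited gene table: the matrix metalloproteinases Mmp2, Mmp12, Mmp13 and Mmp14, the tissue inhibitors of metalloproteinases Timp1, Timp2 and Timp3, and the lysyl oxidases Lox, Loxl1 and Loxl2. All 10 were found among the 17975 genes of the table. RNA was sequenced from whole liver of 3 WT and 3 Hom mice, 1 liver per mouse, to ask how loss of NEK7 in hepatocytes changes liver gene expression. Hom mice carried NEK7 fl/fl together with Alb-Cre, a transgene in which the albumin promoter drives Cre recombinase, so that Nek7 is deleted in hepatocytes while other liver cells are meant to keep it. The genotype of the WT mice is not spelled out in the text of the study. They may be NEK7 fl/fl mice without the Cre or Alb-Cre mice without the floxed allele. Neither this genotype nor the age of the sequenced mice is given in the sources used here. The study states an age of weeks for its mice in general and of months for some Hom mice, and ties neither to the sequenced livers. The strains are on a C57BL/6 background.

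Matrix metalloproteinases (MMPs) are zinc-dependent proteases that are made as inactive precursors and cut collagens, elastin and other matrix proteins once activated. TIMPs bind the active site of MMPs and block it, and lysyl oxidases oxidize lysine side chains of collagen and elastin so that the fibres become cross-linked and harder to degrade. In the injured liver, activated stellate cells, portal fibroblasts and macrophages are known sources of these proteins, and the balance of proteases, inhibitors and cross-linkers is known to bear on whether scar matrix accumulates or is resorbed.

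Because most of these genes moved together between groups, the DNA just upstream of their start sites is shown. RefSeq promoter windows (build GRCm38.p6) were matched for 6 of the 10 genes, and the 100 bases upstream of each start are printed 5′ to 3′ on the coding strand, with capitals marking letters that match TGANTCA (the AP-1 motif), TATAAA (the TATA box), GGGCGG (the GC box, bound by Sp1) or AGGAAG (the core bound by ETS factors), on either strand. In the Timp1 and Timp3 windows the GC box is read on the opposite strand.
Mmp13 (chr9:7272414-7272513, plus strand): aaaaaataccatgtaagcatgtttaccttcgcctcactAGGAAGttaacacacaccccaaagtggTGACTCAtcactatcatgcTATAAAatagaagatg
Mmp12 (chr9:7347274-7347373, plus strand): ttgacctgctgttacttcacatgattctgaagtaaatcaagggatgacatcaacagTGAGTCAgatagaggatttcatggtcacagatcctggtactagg
Mmp14 (chr14:54431498-54431597, plus strand): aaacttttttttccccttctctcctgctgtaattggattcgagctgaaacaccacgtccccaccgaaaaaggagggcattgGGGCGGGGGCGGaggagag
Timp1 (chrX:20870066-20870165, plus strand): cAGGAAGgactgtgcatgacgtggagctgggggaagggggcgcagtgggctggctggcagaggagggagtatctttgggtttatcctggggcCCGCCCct
Timp2 (chr11:118355412-118355511, minus strand): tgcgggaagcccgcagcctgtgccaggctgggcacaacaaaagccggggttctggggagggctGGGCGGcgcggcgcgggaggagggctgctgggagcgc
Timp3 (chr10:86300312-86300411, plus strand): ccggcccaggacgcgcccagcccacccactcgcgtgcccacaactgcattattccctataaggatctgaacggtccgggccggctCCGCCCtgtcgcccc
The motif search covered the 250 bases upstream of each start. TGANTCA was found for 2 of the 6 genes, Mmp13 (35 to 29 bases upstream) and Mmp12 (44 to 38 bases upstream), against 6.7% of all 32851 promoter windows. A second annotated start of Mmp12 had no such match. TATAAA was found upstream for Mmp13 alone among the 6, 16 to 11 bases before the start (12.4% of all windows), and the GC box for Mmp14, Timp1, Timp2 and Timp3 but not Mmp12 or Mmp13 (32.7% of all windows). AGGAAG was found upstream for 5 of the 6, all but Timp2, where 29.5% of all windows hold it. For Mmp12 the match lay at the other annotated start and not in the stretch printed here, so that this count uses both Mmp12 windows while the share of all windows counts each window on its own. TGAGTAA, the variant of the AP-1 motif known from TIMP1 promoters, lay just after the annotated start of Timp1 and is present in 2.7% of whole windows of 300 bases. A match describes letters in these windows and was not tested for binding.

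Read totals lay between 19349418 and 19730236 estimated counts per liver, so depth differed little between groups. Nek7 was lower in all 3 Hom livers, at 16.4 ± 1.83 CPM (CPM, counts scaled to a common library size with TMM factors; SD, n = 3) against 65.2 ± 3.36 in WT livers. Some libraries stood apart from their groups. Hom replicate 1 had 0 counts of the Y-linked genes Ddx3y and Kdm5d, whose counts were 243 or more in each of the other 5 livers. The labels do not give sex, and the study used both sexes in its knock-out experiments. Hom replicate 1 may thus differ in sex from the other 5 livers, and the groups may not be balanced for sex. The part of sex in the values was not tested. WT replicate 1 had a summed level of neutrophil markers of 106 CPM, against 9.24 and 16.0 in the other WT livers, and of Kupffer cell markers (the resident macrophages of the liver) of 465 CPM against 207 and 173. WT replicate 3 differed from the other WT livers in several of the genes described here, as given below. For the 10 genes, calls that change without one of these livers are given below with the value without it.

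Of the 10 genes, 9 were higher and 0 lower in Hom livers than in WT livers (edgeR's quasi-likelihood test, adjusted p under 0.05 by Benjamini-Hochberg over the 13805 genes tested). Among all genes tested, 21.5% were higher and 20.1% were lower. At an unadjusted p under 0.05 the count was again 0 lower, and DESeq2 also called 0 lower and 9 higher. Their median log2 fold change was 1.83, beside −0.0018 for all genes tested. All 3 Hom livers lay above all 3 WT livers for 9 of the 10 genes, against 28.7% of all genes tested. With a log2 fold change of at least 1 also required, 8 of the 10 were higher, against 13.2% of all genes. Lox was the gene past neither threshold, and Mmp14 was just under the fold requirement. Scaling by library size alone moved the median of all genes to 0.453 on the log2 scale and that of the 10 genes to 2.28, and 9 of the 10 were still called higher. All 10 genes passed the filter on low counts, but Mmp12, Mmp13 and Timp1 did so only through their level in Hom livers, so a higher level there was required for them to be tested. In whole tissue, more cells of a type and more RNA per cell cannot be told apart.

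**Figure D1:**
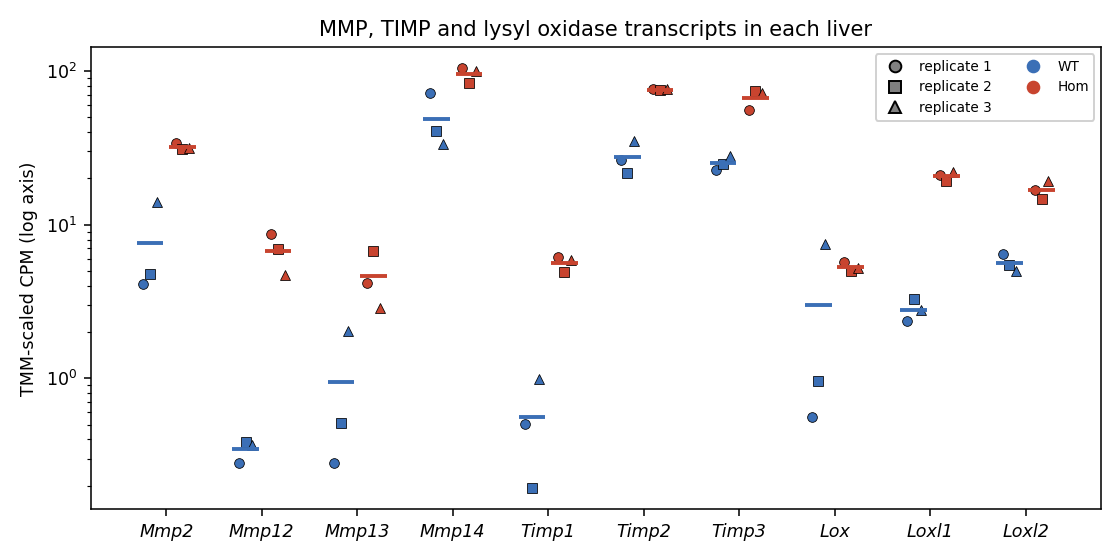
TMM-scaled CPM (vertical, log axis) of the 10 genes in each liver, with WT in blue, Hom in red, a symbol for each replicate and a bar at each group mean (n = 3 mice). Hom points lie above the WT points for each gene but Lox, where WT replicate 3 at 7.50 CPM is above all 3 Hom livers.

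Among the proteases, Mmp12, the macrophage elastase, had the largest fold change of the 10 genes. Mmp12 was at 0.279, 0.385 and 0.369 CPM in WT replicates 1, 2 and 3 and at 8.68, 6.97 and 4.70 CPM in Hom replicates 1, 2 and 3. The WT values rest on 5 to 6 counts per liver and the Hom values on 109 to 186 counts, and the groups were far from overlapping. The difference was 19.5-fold (log2 fold change 4.28 with a standard error of 0.33, adjusted p = 3.84e-04).

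Mmp13, the main interstitial collagenase of rodents, cuts fibrillar collagens. It was at 0.279, 0.513 and 2.03 CPM in WT livers and at 4.15, 6.76 and 2.89 CPM in Hom livers. The lowest Hom liver, replicate 3, was only slightly above WT replicate 3, which itself was 5.12 times the mean of the other 2 WT livers. The log2 fold change was 2.29 (standard error 0.68, adjusted p = 0.0333), a 4.90-fold difference. This call was the least stable of the 9: the adjusted p was between 0.055 and 0.11 when WT replicate 1 or 2 or any of the Hom livers was left out, and without WT replicate 3 the log2 fold change was 3.53 (adjusted p = 0.00693).

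Mmp2, or gelatinase A, degrades denatured collagen and basement membrane and is made mainly by mesenchymal cells. Its level was 4.13, 4.75 and 14.1 CPM in WT livers and 33.8, 31.1 and 31.4 CPM in Hom livers. The Hom livers were within 1.09-fold of each other, while the WT livers spanned 3.41-fold with WT replicate 3 at the top. Mmp2 was 4.20-fold higher in Hom livers (log2 fold change 2.07 with a standard error of 0.44, adjusted p = 0.00985), and the log2 fold change was 2.85 without WT replicate 3.

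Mmp14, a membrane-bound protease that cuts collagen and activates the MMP2 precursor at the cell surface, was the most abundant of the 10 and the least changed of the 9. It was at 71.4, 40.7 and 33.7 CPM in WT livers and at 104, 83.3 and 99.9 CPM in Hom livers. Here WT replicate 1, the liver with the highest Kupffer cell and neutrophil markers, was the highest WT liver, at 1.92 times the mean of the other 2, and the groups still did not overlap. The difference was 1.97-fold (log2 fold change 0.98 with a standard error of 0.27, adjusted p = 0.0260). The adjusted p was 0.0938 without WT replicate 2, 0.0585 without WT replicate 3, 0.0620 without Hom replicate 1 and 0.0743 without Hom replicate 3, and the log2 fold change was 1.36 without WT replicate 1. The part of macrophage RNA in the WT replicate 1 value was not tested.

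Among the inhibitors, Timp1 changed most. TIMP1 is a secreted inhibitor that is induced in injured liver and binds most MMPs. Timp1 was at 0.503, 0.192 and 0.983 CPM in WT livers, or 3 to 16 counts, and at 6.16, 4.95 and 5.86 CPM in Hom livers, or 120 to 136 counts. The groups were well apart, with the lowest Hom liver over the highest WT liver. Timp1 was 9.98-fold higher (log2 fold change 3.32 with a standard error of 0.45, adjusted p = 0.00206). The log2 fold change was 3.97 without WT replicate 3 and 2.93 without WT replicate 2. The Timp1 gene overlaps Syn1 in the RefSeq annotation. Whether the libraries kept strand is not given in the sources used here, so reads of overlapping genes may be shared between them. Syn1 counts were 5 to 23 in WT and 10 to 20 in Hom livers (log2 fold change 0.0067, adjusted p = 0.994).

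Timp2 is both an inhibitor and the partner with which MMP14 forms the complex that activates MMP2. It was at 26.4, 21.6 and 35.1 CPM in WT livers and at 76.3, 74.8 and 76.0 CPM in Hom livers. The Hom livers were within 1.02-fold of each other, the tightest of the 10 genes in that group. Timp2 was 2.73-fold higher in Hom livers (log2 fold change 1.45 with a standard error of 0.17, adjusted p = 0.00120). Its overlapping partner Cep295nl had at most 3 counts in any liver.

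Timp3, which stays bound to the matrix and also inhibits ADAM proteases, was at 22.8, 24.8 and 27.8 CPM in WT livers and at 55.6, 73.7 and 72.1 CPM in Hom livers. Hom replicate 1 was the lowest of the Hom livers and still above every WT liver. Timp3 was 2.67-fold higher (log2 fold change 1.42 with a standard error of 0.14, adjusted p = 6.59e-04). Syn3, which overlaps Timp3, had counts of 38 to 76 in WT and 77 to 106 in Hom livers, against 387 to 1788 for Timp3, and did not pass the test (log2 fold change 0.15, adjusted p = 0.705).

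Among the 3 lysyl oxidases, Loxl1 and Loxl2 were higher and Lox was not past the threshold. Loxl1, which is required for cross-linking of elastin in adult tissues, had the smallest adjusted p of the 10 genes. It was at 2.35, 3.27 and 2.77 CPM in WT livers and at 21.0, 19.2 and 21.9 CPM in Hom livers. The spread within each group was small beside the gap between them, and the difference was 7.42-fold (log2 fold change 2.89 with a standard error of 0.15, adjusted p = 1.59e-04). Loxl2, which cross-links collagen IV and fibrillar collagens, was at 6.48, 5.45 and 4.98 CPM in WT livers and at 16.8, 14.6 and 19.2 CPM in Hom livers. Loxl2 was thus 2.99-fold higher with no overlap (log2 fold change 1.58 with a standard error of 0.16, adjusted p = 7.58e-04).

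Lox, the founding member of the family, cross-links collagen and elastin. It was at 0.558, 0.962 and 7.50 CPM in WT livers and at 5.74, 4.99 and 5.26 CPM in Hom livers. The Hom livers were within 1.15-fold of each other, but the WT livers spanned 13.4-fold, since WT replicate 3 was at 9.86 times the mean of the other 2 and above every Hom liver. Lox did not pass the test (log2 fold change 0.83 with a standard error of 0.83, adjusted p = 0.452), and the 95% interval of its log2 fold change ran from −1.14 to 2.79. Without WT replicate 3 the log2 fold change was 2.81 (adjusted p = 0.00280).

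**Figure D2:**
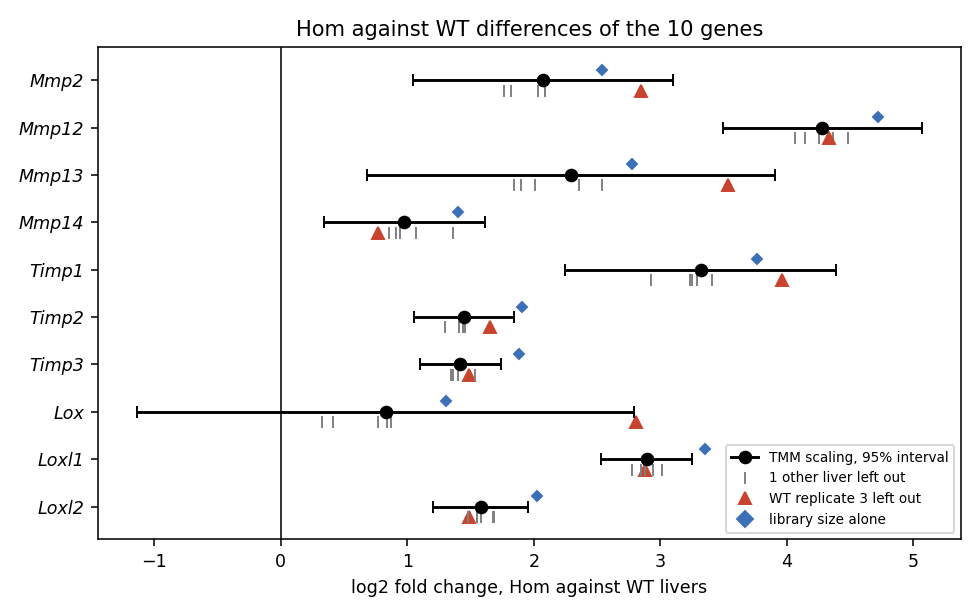
Log2 fold change of Hom against WT livers (horizontal) for the 10 genes, as the TMM-scaled estimate with its 95% interval (black), with each liver left out in turn (ticks, and a red triangle for WT replicate 3) and with library size alone (blue diamonds). Only the interval of Lox crosses 0, and leaving out WT replicate 3 moves Lox from 0.83 to 2.81.

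The WT livers therefore fell into no single pattern. WT replicate 3 was the highest WT liver for Mmp2, Mmp13, Timp1, Timp2, Timp3 and Lox, but not for Mmp12, Mmp14, Loxl1 or Loxl2, for which it lay at 1.11, 0.60, 0.98 and 0.83 times the mean of the other 2. The same liver was highest in Eln, the gene of elastin, at 3.15 times the mean of the other WT livers, and in Col1a1 at 1.60 times. Its summed level of 6 myofibroblast markers was 18.1 CPM, against 10.6 and 15.5 in WT replicates 1 and 2, and Acta2, which encodes α-SMA, had 64 counts against 24 and 37. The other markers did not all follow: Tpm2 was highest there (9.34 CPM against 4.02 and 4.30), Tagln was lowest (2.64 CPM against 3.46 and 6.29) and Myl9 was between the other livers (1.84 CPM against 1.56 and 2.24). The part of these cells in the values of WT replicate 3 was not tested.

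Levels between genes were compared in TPM, which is scaled for transcript length. In WT livers the order of the mean TPM was Mmp14 (19.3 ± 10.3; SD, n = 3), Timp2 (11.2 ± 2.72), Timp3 (7.79 ± 0.525), Mmp2 (3.54 ± 2.37), Loxl2 (1.58 ± 0.396), Loxl1 (1.21 ± 0.104), Timp1 (0.97 ± 0.625), Lox (0.913 ± 1.15), Mmp13 (0.493 ± 0.484) and Mmp12 (0.283 ± 0.0208). In WT livers, ranges of neighbours overlapped except between Timp3 and Mmp2 and between Mmp2 and Loxl2. In Hom livers the order began the same way, with Mmp14 (56.3 ± 4.12), Timp2 (46.9 ± 2.96), Timp3 (32.4 ± 6.90) and Mmp2 (23.5 ± 0.656), none of whose ranges overlapped with the next. Timp1 (15.0 ± 0.952) and Loxl1 (13.9 ± 1.03) came next with overlapping ranges, followed by Mmp12 (8.31 ± 2.11) and Loxl2 (7.20 ± 1.01), which overlapped each other, and by Mmp13 (3.92 ± 1.87) and Lox (2.57 ± 0.0361), which overlapped each other. Mmp12 was thus last of the 10 in WT livers and seventh in Hom livers.

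**Figure D3:**
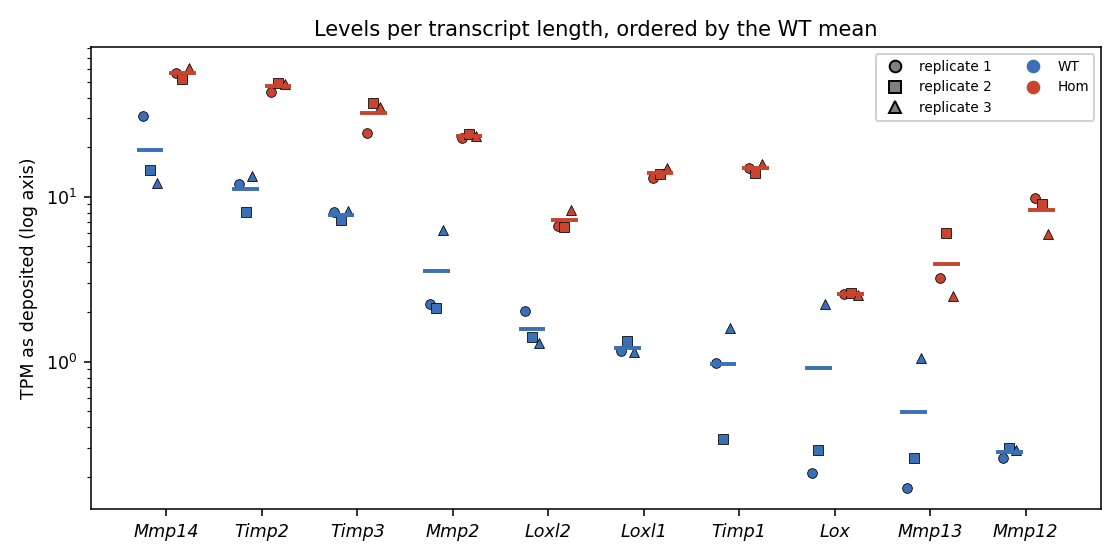
Deposited TPM (vertical, log axis) of the 10 genes in each liver, ordered by the WT mean, with WT in blue, Hom in red and bars at group means (n = 3 mice). Mmp14, Timp2, Timp3 and Mmp2 lead in both groups, and Mmp12 moves from 0.283 TPM in WT to 8.31 TPM in Hom livers.

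Ratios of counts between a pair of genes within each liver do not depend on how libraries are scaled. There were 10 such ratios compared with an exact two-sided permutation test, and with 3 livers against 3 the smallest p it allows is 0.1, so that none could pass 0.05 and the adjusted values were 0.333 or more. Timp1 relative to Timp2 was higher in every Hom liver: the log2 ratio was −5.64, −6.59 and −5.12 in WT livers and −3.63, −3.91 and −3.69 in Hom livers, a difference of 2.04 with no overlap (exact permutation p = 0.1). With 5 in place of 0.5 added to the counts, of which Timp1 had few in WT livers, the difference was 1.40. Mmp2 relative to Timp2 also shifted without overlap, from a mean log2 ratio of −2.05 ± 0.682 (SD, n = 3) in WT to −1.24 ± 0.055 in Hom livers, a difference of 0.82 (exact permutation p = 0.1). The gap was narrow, with WT replicate 3 at −1.319 and the lowest Hom liver at −1.273. Without WT replicate 1 the difference was 0.511.

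Other pairs kept overlapping ratios. Timp3 relative to Timp2 had a mean log2 ratio of −0.12 ± 0.28 in WT and −0.19 ± 0.237 in Hom livers (exact permutation p = 0.9; SD, n = 3). Mmp14 relative to Timp2 differed by −0.43 (exact permutation p = 0.4), or −0.09 without WT replicate 1 and −0.84 without WT replicate 3. Mmp13 relative to Timp1 differed by −0.88 (exact permutation p = 0.3), and by −1.529 to −0.494 with a liver left out. For Mmp12 relative to Timp1 the difference was 0.64 (exact permutation p = 0.4), and 0.17 to 1.289 with a liver left out. Loxl1 and Loxl2 relative to Lox differed by 1.18 and −0.13 (exact permutation p = 0.3 and 1), where the SD among WT livers was 1.91 and 2.11 with Lox far higher in WT replicate 3. Without that liver the differences were 0.08 and −1.31.

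Timp1 and Loxl2 were also set against Col1a1, the α1 chain of collagen I. Timp1 had a mean log2 ratio to Col1a1 of −4.90 ± 0.768 (SD, n = 3) in WT and −4.74 ± 0.104 in Hom livers (exact permutation p = 1). Loxl2 relative to Col1a1 had a mean log2 ratio of −1.39 ± 0.544 in WT and −3.17 ± 0.096 in Hom livers (SD, n = 3), lower in all 3 Hom livers with a difference of −1.78 (exact permutation p = 0.1). Col1a1 itself was 9.98-fold higher in Hom livers, and Loxl2 was 2.99-fold higher.

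Genes of the surrounding pathway were grouped in 6 lists of 74 genes, of which 58 were tested. Of these 58, 36 were higher and 8 lower, and their median was 1.15 on the log2 scale. Over all genes tested, 21.5% were higher and 20.1% lower, the shares to set beside the counts of each list below. Of the other MMPs, 10 were tested, and 6 were higher and 0 lower (median log2 fold change 1.03). Mmp7, or matrilysin, an epithelial protease, had counts of 13, 1 and 2 in WT replicates 1, 2 and 3 and 709 to 1081 in Hom livers. Its log2 fold change was 6.96 with a standard error of 0.47 (edgeR adjusted p = 2.65e-04). Mmp7 passed the filter on low counts only through its level in Hom livers, and its fold is imprecise with so few WT counts. The membrane-type MMP genes Mmp24 and Mmp15 were higher by 1.14 and 0.99 on the log2 scale, and Mmp23 by 1.85 (adjusted p = 0.00260, 0.0117 and 0.00303). Mmp8 and Mmp9, the collagenase and gelatinase of neutrophils, did not pass the test (log2 fold change 0.21 and −0.11). Without WT replicate 1, Mmp8 passed (3.71, adjusted p = 0.0142) and Mmp9 was at 1.47 (adjusted p = 0.164). In WT replicate 1, with its high neutrophil markers, Mmp8 had 92 counts and Mmp9 147, against 2 to 3 and 8 to 30 in the other WT livers.

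Among further inhibitors and lysyl oxidases, Loxl3 and Timp4 were higher (log2 fold change 1.35 and 4.14, adjusted p = 0.00443 and 0.0256) and Reck, a membrane-anchored MMP inhibitor, was lower (−0.67, adjusted p = 0.0381). Timp4 had 0, 0 and 11 counts in WT livers and 168, 46 and 56 in Hom livers, and passed the filter on low counts only through Hom livers. It was not past the threshold with DESeq2 or without WT replicate 1 (adjusted p = 0.0705 and 0.0528), nor with a block for replicate number. Without WT replicate 2, Hom replicate 1 or Hom replicate 3, only 1 gene of this list was higher. Timp4 overlaps Syn2, which was also higher (log2 fold change 3.45, adjusted p = 0.00303), so reads on this pair are uncertain. Reck lost its call with upper-quartile factors and with library size alone (log2 fold change −0.58 and −0.22), and without WT replicate 1 or 3 (adjusted p = 0.0573 and 0.102). It was not called lower with a block for replicate number either, nor without WT replicate 2, Hom replicate 2 or Hom replicate 3. Loxl4 and Pzp, a relative of α2-macroglobulin, did not pass the test (−0.46 and −0.04).

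The fibrillar collagens and elastin are the substrates of both the proteases and the cross-linkers. Of 8 tested, 6 were higher and 1 was lower, with a median log2 fold change of 1.86. The largest rises were in Col1a1 (log2 fold change 3.32), Col5a2 (2.72), Col1a2 (2.61) and Col3a1 (2.29), with adjusted p between 2.00e-04 and 7.90e-04. Col11a2, at 2.21 CPM in WT livers, was the lower gene (−1.55, adjusted p = 0.00504). Of 12 tested genes of elastic fibre assembly, 11 were higher and 0 lower (median 1.60). They included the latent TGF-β binding proteins Ltbp2 (log2 fold change 3.98) and Ltbp1 (1.34), the microfibril gene Fbn1 (1.72) and Mfap4 (2.28), with adjusted p between 1.59e-04 and 0.00168.

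Enzymes that fold, modify and trim procollagen were called in both directions, where 21.5% of all genes tested were higher and 20.1% lower. Of 15 tested, 7 were higher and 4 were lower (median 0.06). Higher genes included Adamts2, which removes the N-propeptide (log2 fold change 1.64), Plod2, a lysyl hydroxylase of collagen telopeptides (2.58), the collagen chaperone Serpinh1 (1.46) and Fkbp10 (1.68), with adjusted p between 4.81e-04 and 0.00203. The lower genes were Bmp1, Pcolce2, P4hb and Plod1, from −0.22 to −1.26 on the log2 scale. With library size alone 8 of the 15 were higher and 0 were lower, and Plod1 was at 0.23. Plod1 was not past the threshold without WT replicate 1 or 3 (adjusted p = 0.0695 and 0.112), nor P4hb without WT replicate 3 (adjusted p = 0.117). Only 2 of the 15 were lower with upper-quartile factors, with a block for replicate number, or without Hom replicate 2 or 3.

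The plasmin system activates several MMP precursors. Of 8 tested genes, 4 were higher and 2 lower, where 21.5% of all genes tested were higher and 20.1% lower. The higher genes included the plasminogen activators Plat (log2 fold change 4.00, adjusted p = 1.83e-04) and Plau (1.91, adjusted p = 0.00249) and the urokinase receptor Plaur (2.10, adjusted p = 0.00810). Furin, a convertase that removes the propeptide of MMP14, and Plg, the plasminogen precursor made by hepatocytes, were lower (−0.49 and −0.53, adjusted p = 0.0179 and 0.0357), and neither was past the threshold with library size alone (−0.04 and −0.08). Plg also lost its call without WT replicate 1 or 3 (adjusted p = 0.0572 and 0.0745). Neither Furin nor Plg was called lower without WT replicate 2, Hom replicate 2 or Hom replicate 3.

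**Figure D4:**
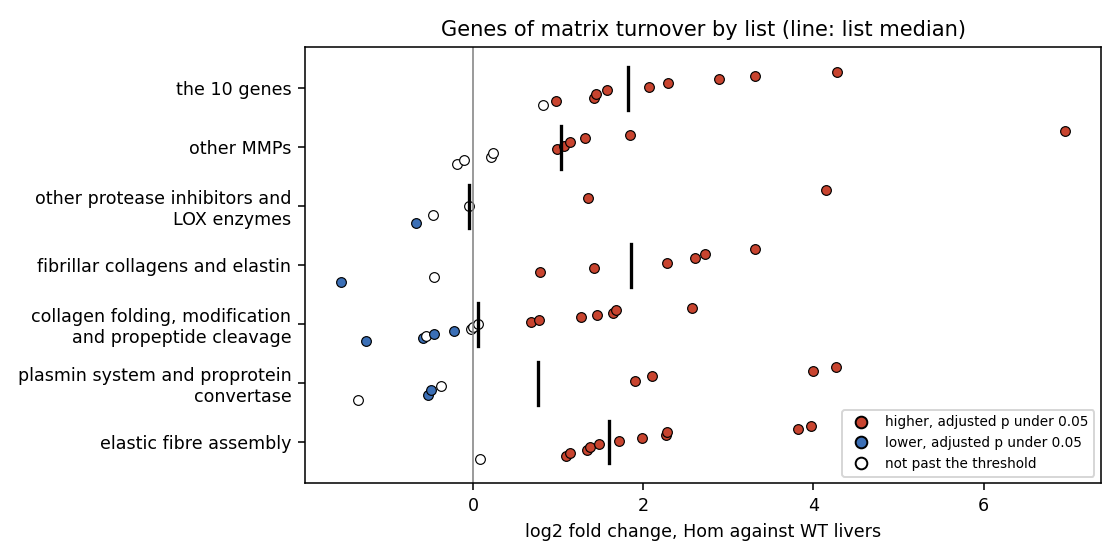
Log2 fold change of Hom against WT livers (horizontal) for each tested gene of the 10 genes and of the 6 pathway lists, in red where higher, blue where lower and white where not past an adjusted p of 0.05, with a line at the list median. Elastic fibre genes lie to the right of 0 in all 12 cases, while the procollagen enzymes lie on both sides with a median of 0.06.

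Markers of the cell types that make these proteins, or that dilute them, moved between groups as well. Counts of called markers are to be read beside the 21.5% higher and 20.1% lower of all genes tested. Hepatocyte markers were lower for 9 of 12 genes, with a summed level of 158160 to 189170 CPM in WT and 65917 to 84311 CPM in Hom livers. With a liver left out, the lower genes numbered 5 (without Hom replicate 3) to 10 (without Hom replicate 1) of the 12. Monocyte-derived macrophage markers, whose cells are a known source of MMP12, were higher for 7 of 10 genes and lower for 0, with sums of 105 to 217 CPM in WT and 909 to 1086 CPM in Hom livers. Without Spp1, which cholangiocytes also make, these sums were 62.3 to 160 and 353 to 389 CPM. Among them Cx3cr1 and Trem2 were higher by 4.75 and 3.31 on the log2 scale. Kupffer cell markers were lower for 2 of 7 genes and higher for 0 (173 to 465 CPM in WT and 151 to 232 CPM in Hom livers), but without WT replicate 1 they were lower for 1 and higher for 2. Neutrophil markers were called for 0 of 6 tested genes in either direction by edgeR's test (9.24 to 106 and 24.1 to 58.8 CPM), and without WT replicate 1 for 2 of 6, both higher. The median log2 fold change without that liver went from −0.91 to −0.22 for Kupffer cell markers and from −0.14 to 1.78 for neutrophil markers.

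Of the mesenchymal lists, myofibroblast markers were higher for 2 of 4 tested genes, Tagln and Acta2 (log2 fold change 1.53 and 1.30), with sums of 10.6 to 18.1 CPM in WT and 20.3 to 30.0 CPM in Hom livers, and without WT replicate 1 for 2 of 4 with 1 lower. With a block for replicate number, or without WT replicate 2 or any single Hom liver, 1 of the 4 was higher. Portal fibroblast markers were higher for 3 of 5 tested genes, Entpd2, Gas6 and Thy1 (43.9 to 64.0 CPM in WT and 180 to 219 CPM in Hom livers), of which Thy1 was not past the threshold without WT replicate 1 (adjusted p = 0.058). Gas6 made up most of these sums, at 53.6, 31.6 and 35.9 CPM in WT replicates 1, 2 and 3 and at 147, 192 and 168 CPM in Hom replicates 1, 2 and 3. Quiescent stellate cell markers were mixed, with Pdgfrb higher (1.72) and Ecm1, Reln and Ngfr lower of 9 tested (330 to 412 CPM in WT and 190 to 231 CPM in Hom livers). Ecm1 alone was at 220, 202 and 176 CPM in WT replicates 1, 2 and 3 and at 39.3, 41.5 and 40.9 CPM in Hom replicates 1, 2 and 3. The fall of the sums therefore rests mainly on Ecm1. Cholangiocyte markers were higher for 8 of 9 genes (70.4 to 102 CPM in WT and 623 to 873 CPM in Hom livers, or 41.1 to 48.0 and 103 to 141 CPM without Spp1). Sinusoidal endothelial markers were lower for 5 of 9 genes (234 to 321 CPM in WT and 174 to 175 CPM in Hom livers). With library size alone, the counts of higher and lower genes were 1 and 1 for Kupffer cell, 2 and 3 for sinusoidal endothelial and 3 and 3 for quiescent stellate markers, and 0 and 6 for hepatocyte markers. No list had a gene at 0 in every liver, and the part of these cells in the values of the 10 genes was not tested.

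**Figure D5:**
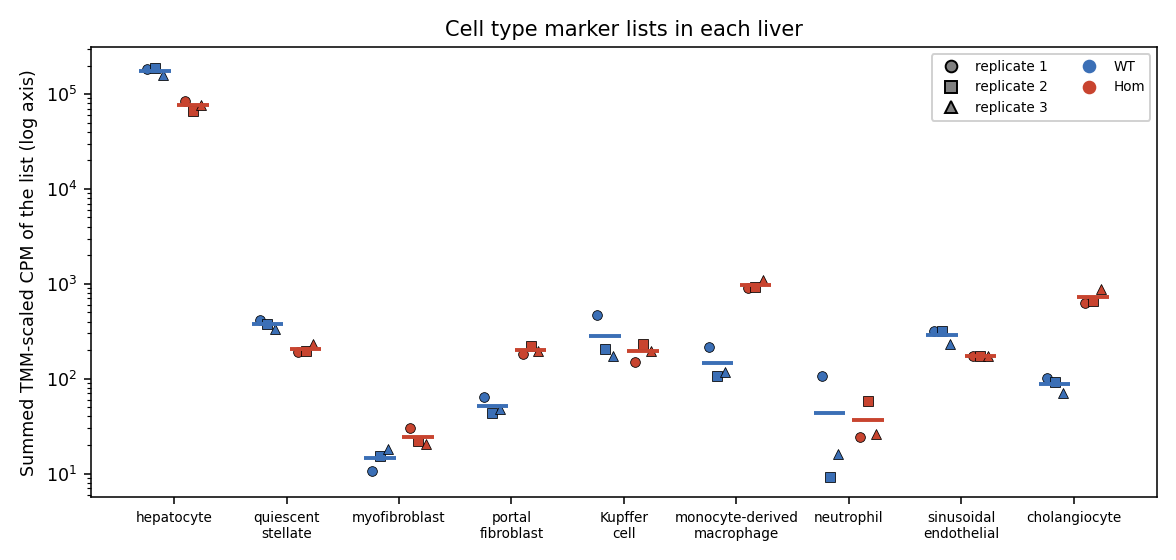
Summed TMM-scaled CPM (vertical, log axis) of 9 cell type marker lists in each liver, with WT in blue, Hom in red, a symbol for each replicate and bars at group means (n = 3 mice). Macrophage, portal fibroblast and cholangiocyte sums are higher in every Hom liver, hepatocyte sums are lower in every Hom liver, and WT replicate 1 is the highest WT liver in the Kupffer cell and neutrophil lists. Gas6 makes up most of the portal fibroblast sums.

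For each of the 9 called genes, the tested genes with the most similar profile over the 6 livers were found by the root mean square difference of log2(CPM + 1) after centring on the WT mean, among 12527 candidates with a mean of at least 1 CPM. The nearest gene was Chmp4c for Timp3 (difference 0.0413), A4galt for Timp2 (0.0801), Shisa5 for Mmp12 (0.0895), Ace for Timp1 (0.0935) and L3mbtl3 for Mmp14 (0.0956). It was Tbx20 for Loxl2 (0.104), Itih5 for Loxl1 (0.156), Cldn4 for Mmp2 (0.161) and Inava for Mmp13 (0.267). Wfdc16 was the second nearest gene for both Mmp12 and Loxl1, at 0.179 and 0.161. The likeness describes 6 livers of 2 groups, and the added 1 CPM narrows the differences of low genes.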

How the data were processed

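RNA from whole liver of 3 WT and 3 Hom mice was sequenced on DNBSEQ by BGI Genomics. The authors deposited, per gene and liver, expected counts (estimated reads, 65.9% of them whole), FPKM (scaled by gene length and library size) and TPM (scaled by length to a common total). Processing notes of the submitters name HISAT2 2.0.4, Bowtie2 2.2.5, RSEM 1.2.12 and build mm9, without their roles. Strandedness is not given in the sources used here. The 6 deposited group mean columns were not used, since mean counts carry crossed group names for all 17975 genes. FPKM was not used, and TPM only to order levels.

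Expected counts were rounded and fitted in R 4.3.3 with edgeR 4.0.16 (filterByExpr, 13805 genes kept; TMM factors; quasi-likelihood test; Benjamini-Hochberg over all genes, adjusted p under 0.05 with no minimum fold, as in the study). CPM values use TMM-scaled library sizes. Standard errors were derived from the fold changes and F statistics. Within-liver ratios used counts plus 0.5. The procedure was tested on simulated data. The genes, pathway lists, marker lists and ratios were chosen with earlier results of these data known, and the promoter motifs after the data were seen. Named genes were the 10 genes, Nek7, up to 4 called genes with the smallest adjusted p per pathway list, genes counted alone, overlapping genes, ratio denominators and the 2 nearest profiles per called gene. A gene that this rule also names is not reported here. Others (Mmp8, Mmp9, Acta2, other markers, Y-linked genes) were named after their values were seen. Alternatives were DESeq2 1.42.0, library size alone, upper-quartile factors, a stricter filter (10 or more counts per liver) or none, a block for replicate number, leaving out single livers, a log2 fold change of at least 1, and 5 added to counts for ratios. Libraries of a group differed beyond sampling noise (chi-square of at least 23.8 for each degree of freedom). Promoter sequences and gene overlaps are from RefSeq on GRCm38.p6, a build other than the one named for the files, and no file coordinate was converted.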

Additional observations from a re-analysis of the deposited data

How the results depend on the processing

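With 3 livers per group, and 3 to 16 counts per WT liver for Mmp12, Timp1 and, in 2 livers, Mmp13, the folds of these genes are imprecise. Under DESeq2, library size alone, upper-quartile factors and no filter, 9 of the 10 genes were higher. The count was 6 of the 7 that were tested under the stricter filter of 10 counts per liver, 8 with a log2 fold change of at least 1, and 7 to 9 with each liver left out. No gene of the 10 was lower in any of these. Of 117 alternative log2 fold changes of single genes, 106 kept their call, 10 lost it (Mmp13 and Mmp14) and 1 gained it (Lox without WT replicate 3), and none changed sign.

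Pathway genes called lower, 8 as reported, numbered 1 with library size alone, 4 with upper-quartile factors, 4 with the replicate block, 2 with a log2 fold change of at least 1 and 3 to 9 with a liver left out. Over all genes, library size alone gave 6574 higher and 642 lower, or 91.1% higher of those called where TMM factors gave 51.7% and upper-quartile factors 62.8%. A log2 fold change of at least 1 left 1825 higher and 575 lower, against 2974 and 2780 as reported, and leaving out a liver gave 1986 to 3057 higher and 1767 to 2750 lower. The lowest counts of lower genes were without Hom replicate 2 or 3 (1829 and 1767).

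Of the 10 ratios, 3 changed sign. With 5 added to the counts, Loxl2 to Lox was 0.077 and Timp1 to Col1a1 was −0.462. With a liver left out, Timp3 to Timp2 ran from −0.179 to 0.088, Loxl2 to Lox from −1.315 to 0.714 and Timp1 to Col1a1 from −0.271 to 0.456. Loxl1 to Lox kept its sign but ran from 0.08 to 1.803, with the lowest value without WT replicate 3. The cause was not tested.

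Same-numbered WT and Hom livers are different mice and did not deviate together (correlations of deviations from the group means of −0.109, −0.0563 and −0.0494). With the replicate block 8 of the 10 genes were higher, and Mmp13 lost its call (adjusted p = 0.0589 at a log2 fold change of 2.53).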

Other observations

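Mmp12 and Mmp13 lie next to each other at one end of the MMP genes on mouse chromosome 9 in the RefSeq annotation, which names 10 of them in the order Mmp13, Mmp12, Mmp1b, Mmp3, Mmp1a, Mmp10, Mmp8, Mmp27, Mmp20 and Mmp7. Of these, 7 were in the table and 4 were tested, and Mmp13, Mmp12 and Mmp7, which lie at both ends, were higher in Hom livers. Mmp13, Mmp12 and Mmp7 passed the filter on low counts only through their level in Hom livers. A higher level there was thus required for them to be tested, and 21.5% of all genes tested were higher. Mmp8 did not pass edgeR's test (adjusted p = 0.897 at a log2 fold change of 0.21, and 3.71 without WT replicate 1, where it passed). Mmp3, a stromelysin, had too few counts to be tested, with 0, 3 and 23 counts in WT livers and 15, 6 and 5 in Hom livers, so that WT replicate 3 was highest here too. Mmp10 had at most 1 count in any liver, and Mmp27 had 4 to 16.

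Reck, whose product is an MMP inhibitor anchored to the membrane, was lower while Timp1, Timp2 and Timp3 were higher. It was at 6.07 ± 0.66 CPM (SD, n = 3) in WT and 3.82 ± 0.807 CPM in Hom livers. Its call was lost when any single liver but Hom replicate 1 was left out. The call was also lost with library size alone, upper-quartile factors or the replicate block.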
